A study of Mus musculus with 15 samples.

Results

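The receptors for sphingosine 1-phosphate (S1P) and lysophosphatidic acid (LPA) are described here in mouse ear skin, as 10 genes: S1pr1, S1pr2, S1pr3, S1pr4, S1pr5, Lpar1, Lpar2, Lpar3, Lpar5 and Lpar6. They were found by symbol among the 48795 genes of each count table, all 10 were found, and all 10 passed the filter on low counts. The list had been chosen from results of these same libraries, with the receptors' levels and their changes between the groups already known. Levels, fold changes and standard errors (SE) of the receptors are therefore given as a description, with no p. Where a receptor is said to be called, its edgeR value passed the threshold used for all genes, and nothing is supported by that. The 15 libraries hold polyadenylated RNA of ears from female mice, 5 weeks old, in a model of skin inflammation, in which the study asked how an innate defense regulator peptide acts when inflammation arises without infection. In 5 libraries the ears were controls (Control). In 4 they received ethanol and phorbol 12-myristate 13-acetate (PMA), a phorbol ester that switches on protein kinase C and irritates skin (PMA_ethanol), and in 6 they received PMA and the peptide of the series title (PMA_1002). The sources used here give no dose, time or strain, nor whether control ears had a vehicle. Since ethanol is absent from the label PMA_1002, effects of vehicle and peptide cannot be told apart. Whether each library came from an animal of its own is not stated, and p-values then reflect only the spread between libraries, which may be technical.

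S1P and LPA are small lipids that act outside the cell on G protein-coupled receptors. S1P is made from ceramide-derived sphingosine by the kinases Sphk1 and Sphk2, leaves cells through Spns2 and is broken down by Sgpl1, and its receptors control the exit of lymphocytes from lymphoid organs and the tightness of vessel walls. LPA is made outside cells largely by autotaxin, the product of Enpp2, and is removed by lipid phosphatases such as Plpp3, and in skin it acts on keratinocytes, fibroblasts, nerves and the hair follicle. The receptors couple to several classes of G protein in differing combinations.

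Upstream sequence is shown for S1pr3 and S1pr5, which had the largest differences between PMA_ethanol and Control in opposite directions, and for S1pr2, the receptor whose window held a cyclic AMP response element (CRE). The sequences are the 250 bases before the gene start from RefSeq on GRCm38.p6, written 5′ to 3′ on the gene's strand, with motif matches in capitals. Coordinates are chr9:20976794-20977043 on the minus strand for S1pr2, chr13:51408368-51408617 on the plus strand for S1pr3 and chr9:21248444-21248693 on the minus strand for S1pr5.
S1pr2: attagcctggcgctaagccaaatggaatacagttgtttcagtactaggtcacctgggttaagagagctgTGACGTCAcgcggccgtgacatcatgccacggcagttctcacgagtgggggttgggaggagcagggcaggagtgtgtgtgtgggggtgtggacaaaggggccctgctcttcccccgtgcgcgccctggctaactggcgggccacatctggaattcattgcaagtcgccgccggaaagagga
S1pr3: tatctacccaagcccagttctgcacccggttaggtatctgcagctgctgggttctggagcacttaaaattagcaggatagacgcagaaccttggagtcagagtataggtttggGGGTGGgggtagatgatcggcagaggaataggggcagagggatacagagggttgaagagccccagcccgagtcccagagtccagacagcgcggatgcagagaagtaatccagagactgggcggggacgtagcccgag
S1pr5: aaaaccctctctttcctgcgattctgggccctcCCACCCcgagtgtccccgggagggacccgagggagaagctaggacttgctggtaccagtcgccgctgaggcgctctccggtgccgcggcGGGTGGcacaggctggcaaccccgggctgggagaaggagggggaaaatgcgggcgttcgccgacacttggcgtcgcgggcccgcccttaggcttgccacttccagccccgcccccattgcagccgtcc
The capitals mark a CRE (TGACGTCA) in S1pr2, which began 181 bases before the gene start. In S1pr3 and S1pr5 they mark the KLF-type site CCACCC or its reverse complement GGGTGG, 137 bases before the start of S1pr3 and 217 and 128 bases before the start of S1pr5. Motifs were searched on both strands in windows of 300 bases, 250 before and 50 after a gene start. A CRE was in 1.79% of all 32851 windows, the KLF-type site in 31.5% and the AP-1 site TGANTCA in 7.81%. The NF-kB consensus was in 8.46% and the CArG box, bound by serum response factor, in 1.63%. Windows were given for 9 receptors. The 2 NF-kB consensus matches in the family and its AP-1 match lay in the Lpar2 window, where 1 of the NF-kB matches overlapped a KLF-type site. S1pr4, Lpar3 and 1 of 3 Lpar1 windows held the KLF-type site too, while the windows of Lpar5 and Lpar6 held none of the 5 motifs. A match of letters is a description, not a binding site.

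The shallowest library, PMA_ethanol library 3, had 2656680 reads in genes and the deepest, PMA_1002 library 5, had 28585995, and 28.5% to 32.85% of the reads in a table were given to no gene. Levels are counts-per-million values (CPM) of reads in genes after TMM scaling, and levels of different genes are compared only per kilobase of exon (RPKM). A log2 fold change is always the first group named over the second. Hair follicle genes varied within each group, and 8 libraries lay above the middle of their range: Control 3, 4 and 5, PMA_ethanol 1, 2 and 4, and PMA_1002 1 and 4. Leaving these out kept 2 Control, 1 PMA_ethanol and 4 PMA_1002 libraries, with the lone library assumed to vary like the others, and PMA_ethanol was then its shallowest library, the third. The 8 are called the hair-rich libraries below. Less RNA of a receptor per cell and fewer cells that express it cannot be told apart in whole ear tissue.

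In the plot of CPM by library, every PMA_ethanol library lay above every Control library for S1pr1, S1pr2, S1pr3, Lpar1 and Lpar5, and below every one for S1pr5, Lpar2 and Lpar3. S1pr4 and Lpar6 overlapped between these groups. For S1pr1, S1pr3 and S1pr5 the PMA_1002 libraries lay between the other groups without overlap. The share of all genes whose groups separate in this way was not counted. As the receptors were chosen with these changes known, nothing is read from the separation.

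**Figure D1:**
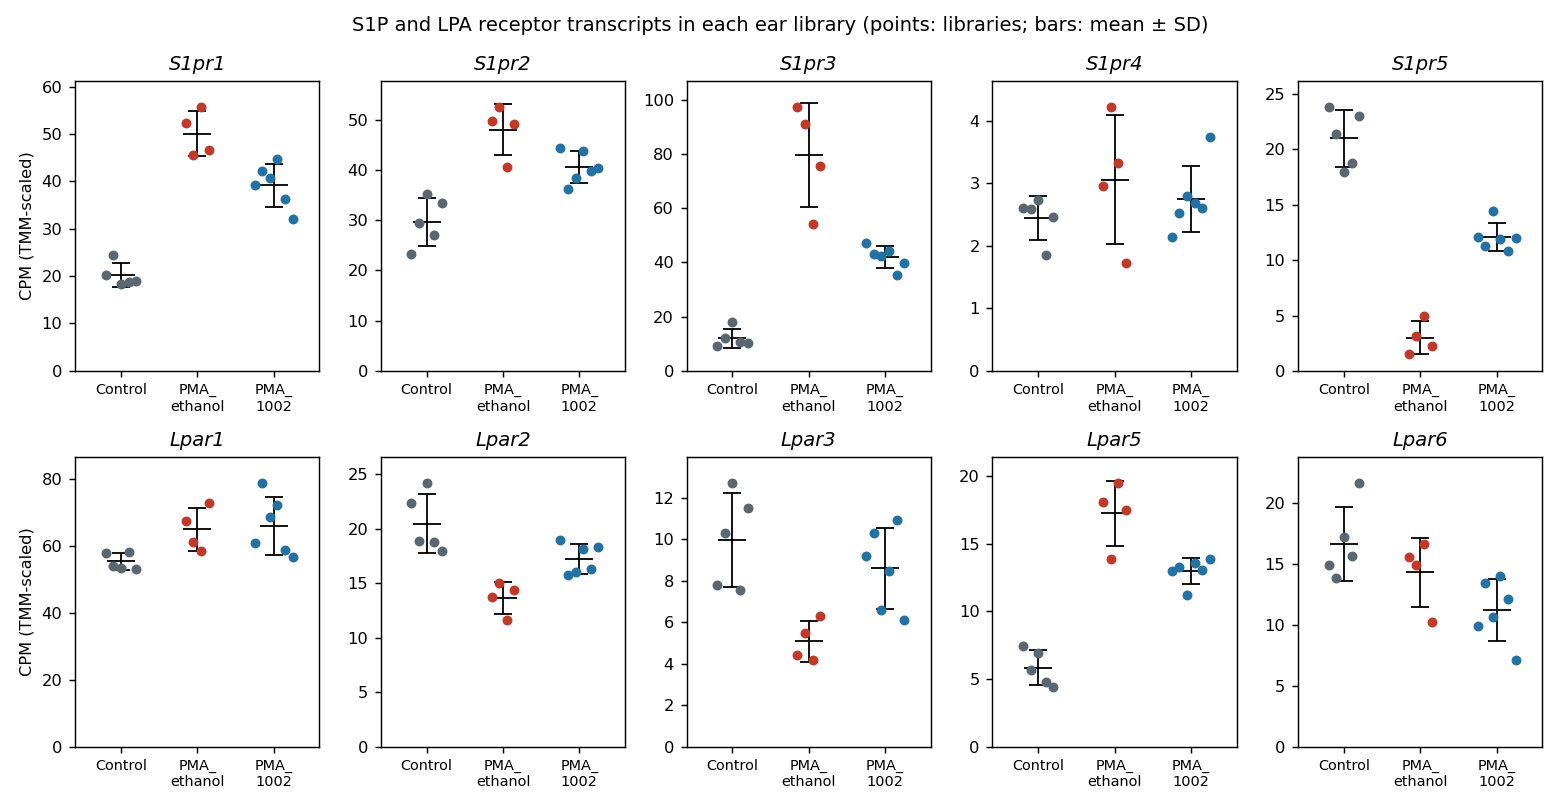
Level of each of the 10 receptors (y axis, CPM after TMM scaling, each panel with its own scale from 0) in the 15 libraries, by group on the x axis; points are libraries and bars are the mean ± SD. S1pr5 lies at 18.0 to 23.8 CPM in Control, at 1.53 to 4.98 CPM in PMA_ethanol and at 10.8 to 14.4 CPM in PMA_1002, so its 3 groups do not overlap.

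S1pr1 (ENSMUSG00000045092, chromosome 3, 115710433 to 115715072 on GRCm38) couples to inhibitory G proteins, guides lymphocytes out of lymphoid organs and tightens endothelium. It was at 20.3, 24.5, 18.3, 18.8 and 19.0 CPM in Control libraries 1 to 5, at 52.3, 45.6, 55.6 and 46.6 CPM in PMA_ethanol libraries 1 to 4, and at 32.0, 40.0 and 44.7 CPM (lowest, median, highest) in PMA_1002. All PMA_ethanol libraries were above all PMA_1002 libraries, and these above all Control libraries. The log2 fold change was 1.31 (SE 0.11) for PMA_ethanol versus Control, -0.35 (SE 0.103) for PMA_1002 versus PMA_ethanol and 0.96 (SE 0.102) for PMA_1002 versus Control. S1pr1 has no entry in the promoter table.

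S1pr2 (ENSMUSG00000043895, chromosome 9, 20962361 to 20976781) restrains cell migration. Control libraries 1 to 5 had 23.2, 29.5, 35.2, 27.0 and 33.5 CPM, PMA_ethanol libraries 1 to 4 had 49.8, 52.5, 40.7 and 49.2 CPM, and PMA_1002 had 36.3, 40.1 and 44.5 CPM as lowest, median and highest. Every library with PMA was above every Control library, while the ranges of PMA_ethanol and PMA_1002 overlapped through PMA_ethanol library 3. The log2 fold changes were 0.70 (SE 0.113) for PMA_ethanol versus Control, -0.25 (SE 0.108) for PMA_1002 versus PMA_ethanol and 0.45 (SE 0.104) for PMA_1002 versus Control, the last of which was 0.29 with upper-quartile scaling.

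S1pr3 (ENSMUSG00000067586, chromosome 13, 51408639 to 51422797), a receptor of vessel walls and many stromal cells that also activates phospholipase C, had the largest rise of the family from Control to PMA_ethanol. Its Control libraries 1 to 5 were at 9.19, 12.2, 18.0, 10.8 and 10.2 CPM, and its PMA_ethanol libraries 1 to 4 at 97.2, 91.1, 54.3 and 75.4 CPM. The PMA_1002 libraries lay at 35.5 (lowest), 42.8 (median) and 47.3 CPM (highest), below every PMA_ethanol library and above every Control library. PMA_ethanol was 2.71 (SE 0.184) above Control in log2, a 6.53-fold difference. This log2 difference was 2.35 without the hair-rich libraries. PMA_1002 differed by -0.94 (SE 0.164) from PMA_ethanol and by 1.77 (SE 0.172) from Control. Without the hair-rich libraries the difference of PMA_1002 from PMA_ethanol was -0.45 and no longer passed the edgeR threshold, and PMA_ethanol was then represented by its lowest library for S1pr3. Exons of S1pr3 overlap the antisense gene Gm32834, which is not in the tables, so its reads are uncertain in as far as counting ignored strand.

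S1pr4 (ENSMUSG00000044199, chromosome 10, 81497747 to 81500132) is expressed mainly in lymphoid and other blood cells. It had the fewest reads of the family, 8 to 96 per library. Its levels were 2.6, 2.58, 2.73, 1.85 and 2.46 CPM in Control libraries 1 to 5, 2.96, 4.21, 3.32 and 1.72 CPM in PMA_ethanol libraries 1 to 4, and 2.14, 2.64 and 3.73 CPM (lowest, median, highest) in PMA_1002. The 3 groups overlapped throughout, and the differences were 0.34 (SE 0.245), -0.20 (SE 0.232) and 0.14 (SE 0.225) in log2, first for PMA_ethanol against Control, then for PMA_1002 against PMA_ethanol and last for PMA_1002 against Control. Without PMA_ethanol library 4, the lowest of its group, the first of these was 0.54 and was called, and without PMA_ethanol library 2, the highest, it was 0.07.

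S1pr5 (ENSMUSG00000045087, chromosome 9, 21242912 to 21248443), known from the exit of natural killer cells from lymph nodes and from oligodendrocytes, went the other way. Control libraries 1 to 5 had 23.8, 21.4, 18.0, 18.8 and 23.0 CPM, PMA_ethanol libraries 1 to 4 had 1.53, 3.11, 4.98 and 2.29 CPM, and PMA_1002 had 10.8, 12.0 and 14.4 CPM as lowest, median and highest. The 3 groups were separate, in the order Control, PMA_1002, PMA_ethanol. The log2 fold change was -2.94 (SE 0.218) for PMA_ethanol versus Control, a 7.66-fold difference, 2.14 (SE 0.212) for PMA_1002 versus PMA_ethanol and -0.80 (SE 0.164) for PMA_1002 versus Control. The second of these was 1.25 without the hair-rich libraries. S1pr5 shares exonic bases with the antisense gene Gm48303, which is not in the tables, so the same uncertainty of strand applies.

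Natural killer genes are given beside S1pr5 as a description. Their list (Ncr1, Klrb1c, Eomes, Gzma, Nkg7 and Klre1) summed to 2.25 to 7.23 CPM in Control, 9.01 to 33.2 CPM in PMA_ethanol and 1.86 to 6.39 CPM in PMA_1002, so it was highest where S1pr5 was lowest. Only 2 of its 6 genes passed the filter on low counts, and Klre1 had no read in Control. Gzma had the largest mean of the 6 in PMA_ethanol, at 8.23 ± 6.62 CPM (mean ± SD). Keratinocyte genes moved in the direction of S1pr5 in 2 of the 3 comparisons: of 6 listed genes (Krt5, Krt14, Krt1, Krt10, Trp63 and Dsg1a), edgeR called 5 lower in PMA_ethanol than in Control and 6 higher in PMA_1002 than in PMA_ethanol, but 2 higher and 0 lower in PMA_1002 than in Control, where S1pr5 was lower. Their sum was 19500 to 25800 CPM in Control, 10800 to 14400 CPM in PMA_ethanol and 21900 to 25100 CPM in PMA_1002. Of 6 Schwann cell genes, 0 were called higher and 5 lower in PMA_ethanol than in Control. In PMA_1002, 2 were called higher and 0 lower than in PMA_ethanol, and 0 higher and 1 lower than in Control. They summed to 371 to 677, 350 to 403 and 429 to 482 CPM in Control, PMA_ethanol and PMA_1002. Of all genes tested, 32.5% were called higher and 35.9% lower in PMA_ethanol versus Control. These shares were 17.0% and 18.0% in PMA_1002 versus PMA_ethanol, and 28.4% and 26.7% in PMA_1002 versus Control. The part of natural killer cells, keratinocytes or Schwann cells in the S1pr5 values was not tested.

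Among the listed LPA receptors, Lpar5 had the largest difference between PMA_ethanol and Control. Lpar1 (ENSMUSG00000038668, chromosome 4, 58435255 to 58553898), a widely expressed receptor of fibroblasts and nerves, was at 57.8, 54.1, 53.5, 58.3 and 53.1 CPM in Control libraries 1 to 5, at 67.4, 61.3, 58.5 and 72.8 CPM in PMA_ethanol libraries 1 to 4, and at 56.8, 64.7 and 78.8 CPM (lowest, median, highest) in PMA_1002. Every PMA_ethanol library was above every Control library by a narrow margin, and PMA_1002 overlapped both groups. The log2 fold changes were 0.24 (SE 0.0964) for PMA_ethanol versus Control, 0.02 (SE 0.0925) for PMA_1002 versus PMA_ethanol and 0.25 (SE 0.0871) for PMA_1002 versus Control. With upper-quartile scaling the first was 0.00 and the third 0.09, and neither was called. The first was also not called without the hair-rich libraries (0.07) or with a block on replicate number (0.20).

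Lpar2 (ENSMUSG00000031861, chromosome 8, 69822429 to 69831102), an LPA receptor of epithelia and blood cells, had 22.4, 18.9, 24.2, 18.8 and 18.0 CPM in Control libraries 1 to 5, 13.7, 15, 11.6 and 14.4 CPM in PMA_ethanol libraries 1 to 4, and 15.8, 17.2 and 19.0 CPM (lowest, median, highest) in PMA_1002. PMA_ethanol was below both other groups without overlap, while PMA_1002 and Control overlapped. The differences were -0.56 (SE 0.114), 0.31 (SE 0.11) and -0.25 (SE 0.1) in log2, first for PMA_ethanol against Control, then for PMA_1002 against PMA_ethanol and last for PMA_1002 against Control. The second was 0.50 without the hair-rich libraries, and the third was -0.41 with upper-quartile scaling.

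Lpar3 (ENSMUSG00000036832, chromosome 3, 146220963 to 146286186), best known from embryo implantation, had the same order of group means as Lpar2. Its Control libraries 1 to 5 had 7.80, 10.3, 12.7, 7.55 and 11.5 CPM, its PMA_ethanol libraries 1 to 4 had 4.39, 5.48, 4.15 and 6.29 CPM, and PMA_1002 had 6.10, 8.81 and 10.9 CPM as lowest, median and highest. PMA_ethanol lay below all of Control but overlapped PMA_1002 through PMA_ethanol library 4. The log2 fold changes were -0.95 (SE 0.214) for PMA_ethanol versus Control, 0.75 (SE 0.207) for PMA_1002 versus PMA_ethanol and -0.20 (SE 0.183) for PMA_1002 versus Control. Without the hair-rich libraries the first was -1.12 and the second 1.08, and neither was called.

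Lpar5 (ENSMUSG00000067714, chromosome 6, 125067920 to 125082472), an LPA receptor of nerves and white blood cells, had 7.46, 5.68, 6.90, 4.78 and 4.43 CPM in Control libraries 1 to 5, 18.1, 13.9, 19.5 and 17.5 CPM in PMA_ethanol libraries 1 to 4, and 11.2, 13.2 and 13.9 CPM (lowest, median, highest) in PMA_1002. All libraries with PMA were above all Control libraries, and the PMA groups met at 13.9 CPM. The log2 fold changes were 1.53 (SE 0.154), -0.39 (SE 0.141) and 1.15 (SE 0.142) in the order of comparisons used for Lpar2. The second was -0.60 without the hair-rich libraries.

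Lpar6 (ENSMUSG00000033446, chromosome 14, 73237895 to 73243294), a receptor needed for normal hair growth, had 14.9, 13.8, 17.2, 15.6 and 21.6 CPM in Control libraries 1 to 5, 15.5, 14.9, 16.6 and 10.2 CPM in PMA_ethanol libraries 1 to 4, and 7.12, 11.4 and 14 CPM (lowest, median, highest) in PMA_1002. All groups overlapped. Its differences were -0.23 (SE 0.189) for PMA_ethanol versus Control, -0.34 (SE 0.183) for PMA_1002 versus PMA_ethanol and -0.57 (SE 0.17) for PMA_1002 versus Control. With upper-quartile scaling the first was -0.47 and was called lower, and without the hair-rich libraries it was 0.22 and the third -0.38, neither called. Lpar6 lies within Rb1 on the opposite strand with overlapping exons, and Rb1 is counted in the tables, so reads could be assigned to either gene where counting ignored strand.

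Neutrophil genes were higher with PMA. The 7 neutrophil genes summed to 15.1 to 26.5 CPM in Control, 1050 to 2430 CPM in PMA_ethanol and 232 to 489 CPM in PMA_1002, with 6 of 6 tested genes called higher in PMA_ethanol than in Control and 6 called lower in PMA_1002 than in PMA_ethanol. The defining neutrophil gene Ly6g was at 0.0321 ± 0.0718 CPM in Control (mean ± SD, n = 5), 0.501 ± 0.363 CPM in PMA_ethanol (n = 4) and 0.114 ± 0.096 CPM in PMA_1002 (n = 6). The 7 macrophage genes summed to 356 to 451, 728 to 944 and 511 to 622 CPM in Control, PMA_ethanol and PMA_1002. Of these 7, edgeR called 3 higher and 1 lower in PMA_ethanol than in Control, and 1 higher and 4 lower in PMA_1002 than in PMA_ethanol. Mrc1, a mannose receptor, had 118 ± 7.79 CPM in Control and 483 ± 55.8 CPM in PMA_ethanol, so it weighed most in the PMA_ethanol sum. Csf1r, the receptor of a macrophage growth factor, had 152 ± 16 and 156 ± 24.6 CPM. Both were singled out after their values were seen. Endothelial genes, with 2 of 10 called higher and 3 lower in PMA_ethanol than in Control, summed to 235 to 288, 281 to 322 and 232 to 260 CPM. T cell genes summed to 22.3 to 40.7, 21.9 to 37.6 and 17.5 to 29.0 CPM, overlapping in all groups, with 3 of 6 called higher and 1 lower in PMA_ethanol than in Control and 3 called lower in PMA_1002 than in PMA_ethanol. Mural cell genes summed to 448 to 482, 336 to 447 and 409 to 486 CPM, and fibroblast genes to 13700 to 20200, 7040 to 16200 and 8180 to 15300 CPM. In PMA_ethanol versus Control, 1 of 7 mural genes was called higher and 4 lower, and 1 of 6 fibroblast genes higher and 2 lower. None of the 5 B cell genes passed the filter on low counts, at sums of 0.508 to 1.76 CPM, and Pax5 had no read in Control. Beside these counts, 32.5% of all genes tested were called higher and 35.9% lower in PMA_ethanol versus Control. In PMA_1002 versus PMA_ethanol the shares were 17.0% and 18.0%. The part of these cells in the receptor values was not tested.

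Across the family, edgeR called 5 receptors higher and 3 lower in PMA_ethanol than in Control, beside 32.5% and 35.9% of all 14991 genes tested. It called 3 higher (S1pr5, Lpar2 and Lpar3) and 3 lower (S1pr1, S1pr3 and Lpar5) in PMA_1002 than in PMA_ethanol, beside 17.0% and 18.0% of all genes. Against Control, 5 were called higher and 3 lower in PMA_1002, beside 28.4% and 26.7% of all genes. The median log2 fold change of the 10 receptors was 0.29, -0.23 and 0.20 in these comparisons, and that of all genes -0.07, 0.03 and -0.03. Since the list was chosen with these contrasts known, and the comparisons share libraries, nothing is read from the counts.

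**Figure D2:**
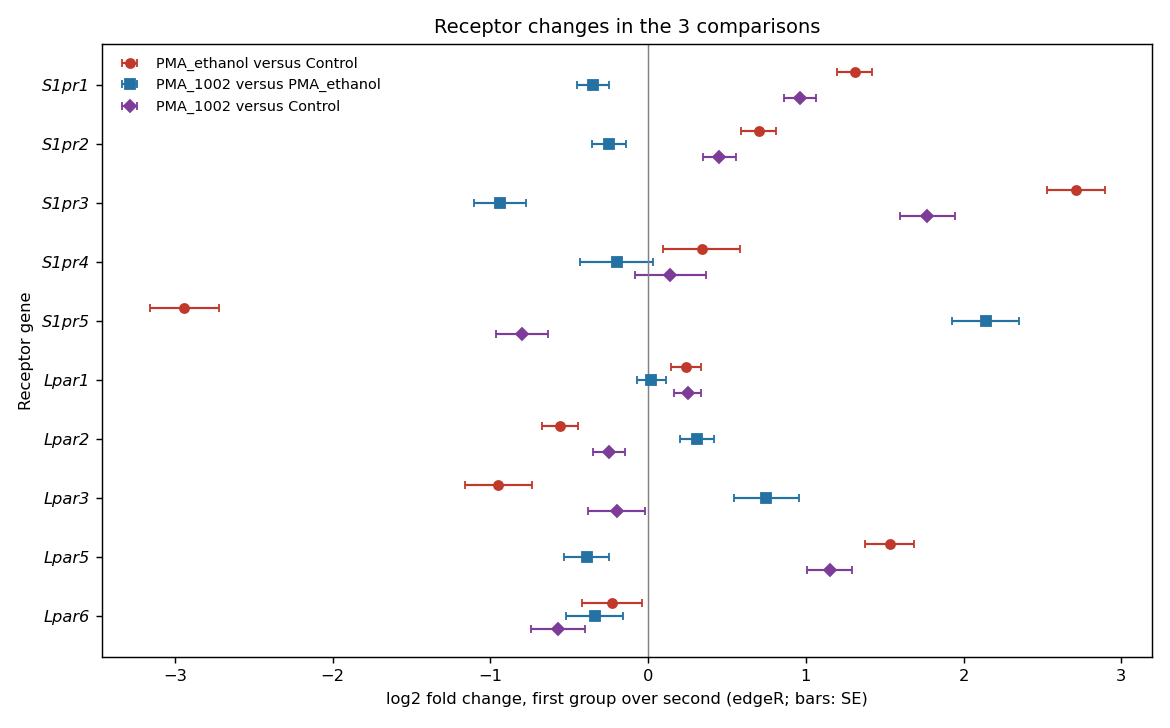
Log2 fold change of each receptor (x axis, first group over second, edgeR) in the 3 comparisons, with SE as bars and receptors on the y axis. S1pr3 at 2.71 and S1pr5 at -2.94 mark the ends of the PMA_ethanol versus Control values, and Lpar1 stays within 0.02 to 0.25 in all 3.

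Several of these calls changed when 1 library was left out, while the fold changes concerned kept their direction. For PMA_ethanol versus Control, Lpar1 was not called without Control library 2, 3 or 5 or PMA_ethanol library 1 or 4 (0.18 to 0.23 in log2). For PMA_1002 versus PMA_ethanol, the S1pr1 call was lost without PMA_ethanol library 3 (-0.30), while S1pr2 was then called lower (-0.32), as it also was with DESeq2 and RLE scaling (both -0.30) and in a fit of the 2 groups alone (-0.27). In the same comparison Lpar2 was not called without PMA_1002 library 1, 4 or 6 or PMA_ethanol library 1, 3 or 4 (0.26 to 0.33), nor Lpar5 without any 1 of PMA_1002 libraries 1 to 5 or PMA_ethanol libraries 1, 3 and 4 (-0.40 to -0.33). For PMA_1002 versus Control, Lpar1 was lost without PMA_1002 library 2 (0.19), and Lpar2 without Control library 1 or 3, any 1 of PMA_1002 libraries 2 to 6 or PMA_ethanol library 1 (-0.26 to -0.18). Other settings ended calls too. In PMA_1002 versus PMA_ethanol, S1pr1 was not called without the hair-rich libraries (-0.56) or with the replicate block (-0.27). Lpar2 was not called there with DESeq2 (0.25), RLE scaling (0.27), no filter (0.32), the replicate block (0.33) or without the hair-rich libraries (0.50), nor Lpar5 with no filter (-0.38), the block (-0.36), upper-quartile scaling (-0.31) or without the hair-rich libraries (-0.60). In PMA_1002 versus Control, Lpar2 was not called with DESeq2 or the block (both -0.26), the hair follicle covariate (-0.19), no filter (-0.21) or without the hair-rich libraries (-0.32), nor Lpar1 without those libraries (0.24).

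Per kilobase of exon, the order of the receptors differed between groups. In Control, Lpar1 stood first at 12.9 ± 0.573 RPKM (mean ± SD, n = 5), followed by S1pr5 at 8.39 ± 1.01 and S1pr1 at 6.62 ± 0.823, whose ranges overlapped. Lpar3, Lpar5, S1pr2, Lpar2, Lpar6 and S1pr3 came next, at 4.05 down to 2.70 RPKM, and each overlapped its neighbour in this order, while S1pr4 was last at 1.02 ± 0.145 RPKM. In PMA_ethanol (n = 4) the first places went to S1pr3 at 17.8 ± 4.29 RPKM, S1pr1 at 16.4 ± 1.56 and Lpar1 at 15.2 ± 1.49, with overlapping ranges, and then to Lpar5 at 11.4 ± 1.58. S1pr4 at 1.28 ± 0.432 and S1pr5 at 1.19 ± 0.592 RPKM overlapped at the bottom. In PMA_1002 (n = 6) Lpar1 led at 15.4 ± 2.0 RPKM, before S1pr1 at 12.9 ± 1.48, S1pr3 at 9.41 ± 0.907 and Lpar5 at 8.59 ± 0.632, each overlapping the next, and S1pr5 was in the sixth place at 4.84 ± 0.49.

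The mix of receptors within each family was taken as shares of summed RPKM. S1pr5 made up 37.4% ± 4.29 of the 5 S1P receptors in Control (mean ± SD, n = 5), 2.87% ± 1.62 in PMA_ethanol (n = 4) and 14.5% ± 1.31 in PMA_1002 (n = 6). S1pr3 made up 12.0% ± 3.33, 41.3% ± 6.9 and 28.2% ± 1.44 in the same groups. S1pr2 kept a share of 16.6% ± 2.47, 14.1% ± 1.12 and 15.3% ± 1.28, with overlapping ranges. Among the 5 listed LPA receptors Lpar1 held 47.2% ± 3.69, 45.1% ± 2.94 and 47.3% ± 3.47, and Lpar5 14% ± 2.64, 33.8% ± 3.83 and 26.6% ± 2.71. The sum of the S1P receptors was 22.5 ± 1.4, 42.7 ± 3.91 and 33.4 ± 2.31 RPKM, and that of the LPA receptors 27.4 ± 1.45, 33.6 ± 1.93 and 32.5 ± 2.69 RPKM.

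**Figure D3:**
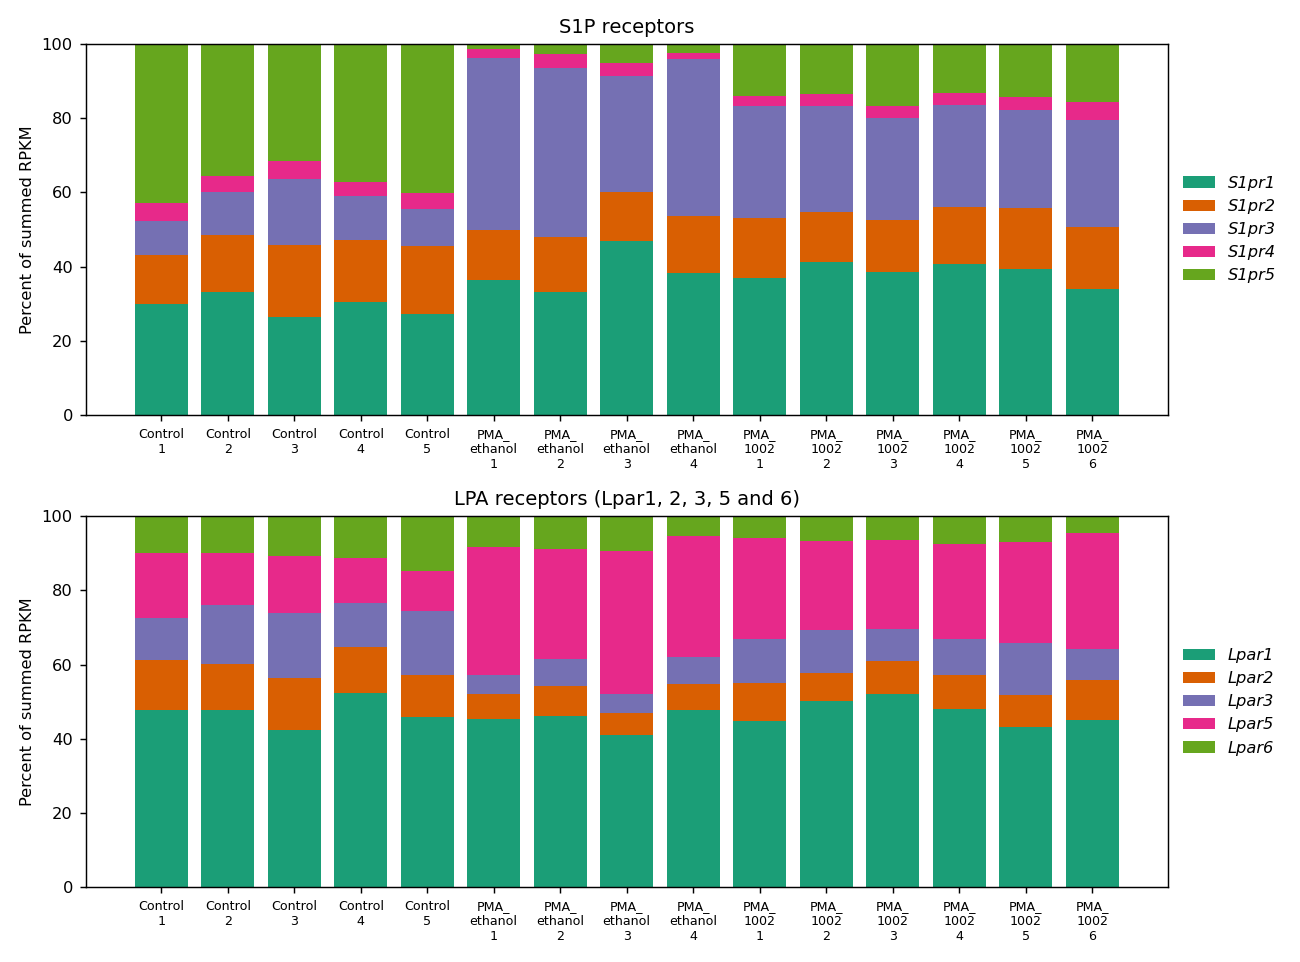
Share of each receptor (y axis, percent of the summed RPKM of its family) in each of the 15 libraries on the x axis, for the 5 S1P receptors (upper panel) and the 5 listed LPA receptors (lower panel). The S1pr5 share is 31.6% to 42.8% in Control, 1.30% to 5.12% in PMA_ethanol and 13.3% to 16.6% in PMA_1002, while the Lpar1 share stays between 41.0% and 52.4% in all libraries.

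Genes that make, move and break down S1P were compared next, as a list of 13 of which 12 passed the filter on low counts (Apom did not). The lists of genes around the receptors were also chosen with earlier results of these data known. Named genes were largely taken by smallest adjusted p. The adjusted p-values below are therefore a description, and nothing is supported by them. In PMA_ethanol versus Control 1 rose and 6 fell, beside 32.5% and 35.9% of all genes, with a median log2 fold change of -0.34. Sphk1, the inducible sphingosine kinase, had 65.0 ± 5.71 CPM in Control (n = 5) and 171 ± 19.3 CPM in PMA_ethanol (n = 4), and so rose by 1.39 (SE 0.0962, edgeR adjusted p = 1.42e-09), whereas Sphk2, the other kinase, fell by 0.71 (SE 0.127, edgeR adjusted p = 9.17e-05). Means of the genes that follow are ± SD over the same numbers of libraries. Acer1, the ceramidase of the epidermis that supplies sphingosine, fell by 1.34 (SE 0.129, edgeR adjusted p = 8.56e-08), and Sgpp1, an S1P phosphatase, fell by 1.21 (SE 0.161, edgeR adjusted p = 4.52e-06). The exporter Spns2 was at 93.6 ± 15.6 and 93.1 ± 16.4 CPM (edgeR adjusted p = 0.983). The lyase Sgpl1 was at 277 ± 19.3 and 284 ± 12.3 CPM (edgeR adjusted p = 0.664), and with upper-quartile scaling it was called lower (-0.20).

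With the peptide, 6 of the 12 S1P genes were higher than in PMA_ethanol and 1 was lower, beside 17.0% and 18.0% of all genes, with a median log2 fold change of 0.29. Sgpp1 had 108 ± 15 CPM in PMA_ethanol (n = 4) and 218 ± 34.3 CPM in PMA_1002 (n = 6), a rise of 1.02 (SE 0.156, edgeR adjusted p = 9.72e-05), and Acer1 rose by 0.83 (SE 0.124, edgeR adjusted p = 6.23e-05). Acer2, a Golgi ceramidase, rose by 0.66 (SE 0.223, edgeR adjusted p = 0.0303), Asah1, the lysosomal one, by 0.26 (SE 0.0821, edgeR adjusted p = 0.02), and Spns2 by 0.45 (SE 0.156, edgeR adjusted p = 0.0357). Sphk1 fell by 0.26 (SE 0.0908, edgeR adjusted p = 0.0368), and Sgpl1 was not called (-0.10, edgeR adjusted p = 0.295). The Acer2 call was lost without PMA_1002 library 3 or 6 or PMA_ethanol library 1, 2 or 3 (0.52 to 0.62), and the Asah1 call without PMA_ethanol library 1 or 2 (0.22 to 0.26). Spns2 was lost without PMA_1002 library 1, 5 or 6 or PMA_ethanol library 2, 3 or 4 (0.37 to 0.44), and Sphk1 without PMA_1002 library 2, 3 or 4 or PMA_ethanol library 3 or 4 (-0.25 to -0.19). Against Control, 2 of the 12 genes were higher and 2 lower in PMA_1002, beside 28.4% and 26.7% of all genes: Sphk1 (1.13, SE 0.0887, edgeR adjusted p = 2.07e-08), Sphk2 (-0.54, edgeR adjusted p = 0.000651), Acer1 (-0.51, edgeR adjusted p = 0.00104) and Spns2 (0.44, edgeR adjusted p = 0.0166).

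Of 7 genes of LPA synthesis and breakdown, 2 rose and 4 fell in PMA_ethanol versus Control, beside 32.5% and 35.9% of all genes, with a median of -0.26. Pla1a, a phospholipase that forms lysophosphatidylserine, rose by 1.79 (SE 0.233, edgeR adjusted p = 3.01e-06) from 1.23 ± 0.302 CPM, and Liph, the phospholipase that makes LPA in hair follicles, rose by 0.91 (SE 0.139, edgeR adjusted p = 1.74e-05). Enpp2 was at 311 ± 18.9 CPM in Control and 210 ± 33.9 CPM in PMA_ethanol and fell by 0.56 (SE 0.0925, edgeR adjusted p = 4.29e-05), and Acp6, an LPA phosphatase of mitochondria, fell by 0.59 (SE 0.117, edgeR adjusted p = 0.000241, or -1.14 without the hair-rich libraries). Enpp2 was at 211 ± 11.1 CPM in PMA_1002, next to its PMA_ethanol level (edgeR adjusted p = 0.997), and was lower there than in Control (-0.56, edgeR adjusted p = 2.57e-05). Plpp3, at 324 ± 32.6 and 341 ± 43.9 CPM in Control and PMA_ethanol (edgeR adjusted p = 0.492), was lower in PMA_1002 at 245 ± 16.2 CPM, by -0.48 (SE 0.0902, edgeR adjusted p = 0.000593) against PMA_ethanol and by -0.40 (edgeR adjusted p = 0.000766) against Control.

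In PMA_1002 versus PMA_ethanol 2 of these 7 genes were higher and 2 lower, beside 17.0% and 18.0% of all genes, with a median that rounds to 0. Besides Plpp3, Pla1a fell by 0.79 (SE 0.204, edgeR adjusted p = 0.00616), Plpp2, a related phosphatase, rose by 0.42 (SE 0.094, edgeR adjusted p = 0.00241), and Acp6 rose by 0.31 (SE 0.112, edgeR adjusted p = 0.0423). The Acp6 call was lost without Control library 1 or 4, PMA_1002 library 1, 3, 4 or 6 or PMA_ethanol library 2 or 3 (0.20 to 0.33). Against Control, 2 were higher and 3 lower in PMA_1002, beside 28.4% and 26.7% of all genes, with Liph at 0.61 (SE 0.127, edgeR adjusted p = 0.000647) and Pla1a at 1.0 (SE 0.221, edgeR adjusted p = 0.0011).

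Among 7 other receptors for LPA and related lysophospholipids, 5 passed the filter, and Gpr174 and Gpr55 did not. In PMA_ethanol versus Control 2 rose and 2 fell, beside 32.5% and 35.9% of all genes, with a median of -0.58. Gpr132, a receptor of macrophages and lymphocytes, was at 2.63 ± 0.597 CPM in Control and 49.5 ± 2.11 CPM in PMA_ethanol and rose by 4.23 (SE 0.183, edgeR adjusted p = 4.34e-12), and P2ry10, a lymphocyte receptor, rose by 1.69 (SE 0.283, edgeR adjusted p = 4.76e-05). Gpr34, a lysophosphatidylserine receptor of macrophages and mast cells, was at 8.62 ± 2.62 CPM in Control and 1.05 ± 0.555 CPM in PMA_ethanol and fell by 3.16 (SE 0.38, edgeR adjusted p = 1.21e-06). Lpar4, the LPA receptor outside the list of 10, was at 4.91 ± 1.63 CPM in Control, 1.04 ± 0.261 in PMA_ethanol and 2.61 ± 0.771 in PMA_1002. It fell by 2.30 (SE 0.316, edgeR adjusted p = 5.53e-06) in PMA_ethanol versus Control and rose by 1.40 (SE 0.313, edgeR adjusted p = 0.00223) in PMA_1002 versus PMA_ethanol. Gpr132 was at 20.9 ± 4.76 CPM in PMA_1002, lower than in PMA_ethanol by -1.22 (SE 0.143, edgeR adjusted p = 5.83e-06), so 1 of the 5 was higher and 1 lower with the peptide, beside 17.0% and 18.0% of all genes, with a median of 0.46. Against Control, beside 28.4% and 26.7% of all genes, 2 were higher (Gpr132 at 3.01, edgeR adjusted p = 6.09e-10, and P2ry10 at 1.15, edgeR adjusted p = 0.00137) and 2 lower (Gpr34 at -2.53, edgeR adjusted p = 2.65e-06, and Lpar4 at -0.90, edgeR adjusted p = 0.00496).

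Of 18 G proteins, downstream signalling genes and receptor regulators, all tested, 10 rose and 5 fell in PMA_ethanol versus Control, beside 32.5% and 35.9% of all genes, with a median of 0.41. Rock2, a kinase that acts on the actin cytoskeleton, was at 99.1 ± 6.91 CPM in Control and 306 ± 38.9 CPM in PMA_ethanol and rose by 1.62 (SE 0.115, edgeR adjusted p = 1.89e-09), and Gna13, a G protein subunit, by 0.61 (SE 0.0657, edgeR adjusted p = 3.11e-07, or 0.37 with upper-quartile scaling). Klf2, a transcription factor that drives S1pr1 in lymphocytes and endothelium, rose by 1.12 (SE 0.112, edgeR adjusted p = 1.45e-07). Cd69, whose product removes S1pr1 from the surface of activated lymphocytes, was at 0.80 ± 0.384 CPM in Control and 5.69 ± 1.47 CPM in PMA_ethanol and rose by 2.85 (SE 0.327, edgeR adjusted p = 6.91e-07). Arrb1, a beta-arrestin that shuts receptors off, fell by 1.08 (SE 0.115, edgeR adjusted p = 2.76e-07).

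In PMA_1002 versus PMA_ethanol 3 of these 18 genes were higher and 6 lower, beside 17.0% and 18.0% of all genes, with a median of -0.13. Gna13 fell by 0.35 (SE 0.0628, edgeR adjusted p = 0.000345), Rock2 by 0.57 (SE 0.108, edgeR adjusted p = 0.000604), Gnai2, an inhibitory G protein subunit, by 0.27 (SE 0.0594, edgeR adjusted p = 0.00216) and Cd69 by 1.11 (SE 0.268, edgeR adjusted p = 0.00393). Arrb1 rose by 0.58 (SE 0.111, edgeR adjusted p = 0.000677). Klf2 fell by 0.28 (SE 0.106, edgeR adjusted p = 0.0494), a call lost without any 1 of the 5 Control libraries, without PMA_1002 library 1, 2, 4 or 5 and without PMA_ethanol library 1, 3 or 4 (-0.31 to -0.20). Against Control, 10 were higher and 2 lower in PMA_1002, beside 28.4% and 26.7% of all genes, with Rock2 at 1.05 (edgeR adjusted p = 3.85e-07), Klf2 at 0.84 (edgeR adjusted p = 3.96e-06), Cd69 at 1.74 (edgeR adjusted p = 0.000214) and Gnai3, another inhibitory subunit, at 0.59 (edgeR adjusted p = 0.000322).

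Calls of pathway genes also depended on other settings. Without the hair-rich libraries, which leaves 1 PMA_ethanol library, the calls in PMA_1002 versus PMA_ethanol were lost for Sgpp1 (0.98), Asah1 (0.32), Spns2 (0.57), Sphk1 (-0.31), Plpp2 (0.52), Plpp3 (-0.38), Pla1a (-1.06), Lpar4 (1.14), Gna13 (-0.34), Gnai2 (-0.19), Cd69 (-1.0) and Klf2 (-0.21). Acer1 was then at 1.26, Acer2 at 1.32, Acp6 at 0.77 and Arrb1 at 0.88, all still called. In PMA_ethanol versus Control the Sphk2 (-0.83) and Lpar4 (-1.99) calls were lost without those libraries, and in PMA_1002 versus Control those of Lpar4 (-0.86), Pla1a (1.08) and Spns2 (0.38). The last was lost with upper-quartile scaling too (0.29), while Sgpl1 was then called lower (-0.22). In PMA_1002 versus PMA_ethanol, Acer2 was not called with the hair follicle covariate (0.53), no filter (0.67), the 2 groups alone (0.66) or the replicate block (0.58), nor Acp6 with DESeq2 (0.26), RLE scaling (0.27), the 2 groups alone (0.30) or the block (0.34). Asah1 was not called with the covariate (0.23), nor Spns2 with RLE scaling (0.41) or no filter (0.45). Sphk1 was not called with no filter (-0.25), the 2 groups alone (-0.27) or upper-quartile scaling (-0.18), nor Klf2 with either other filter setting, the covariate, the 2 groups alone or upper-quartile scaling (-0.29 to -0.20).

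**Figure D4:**
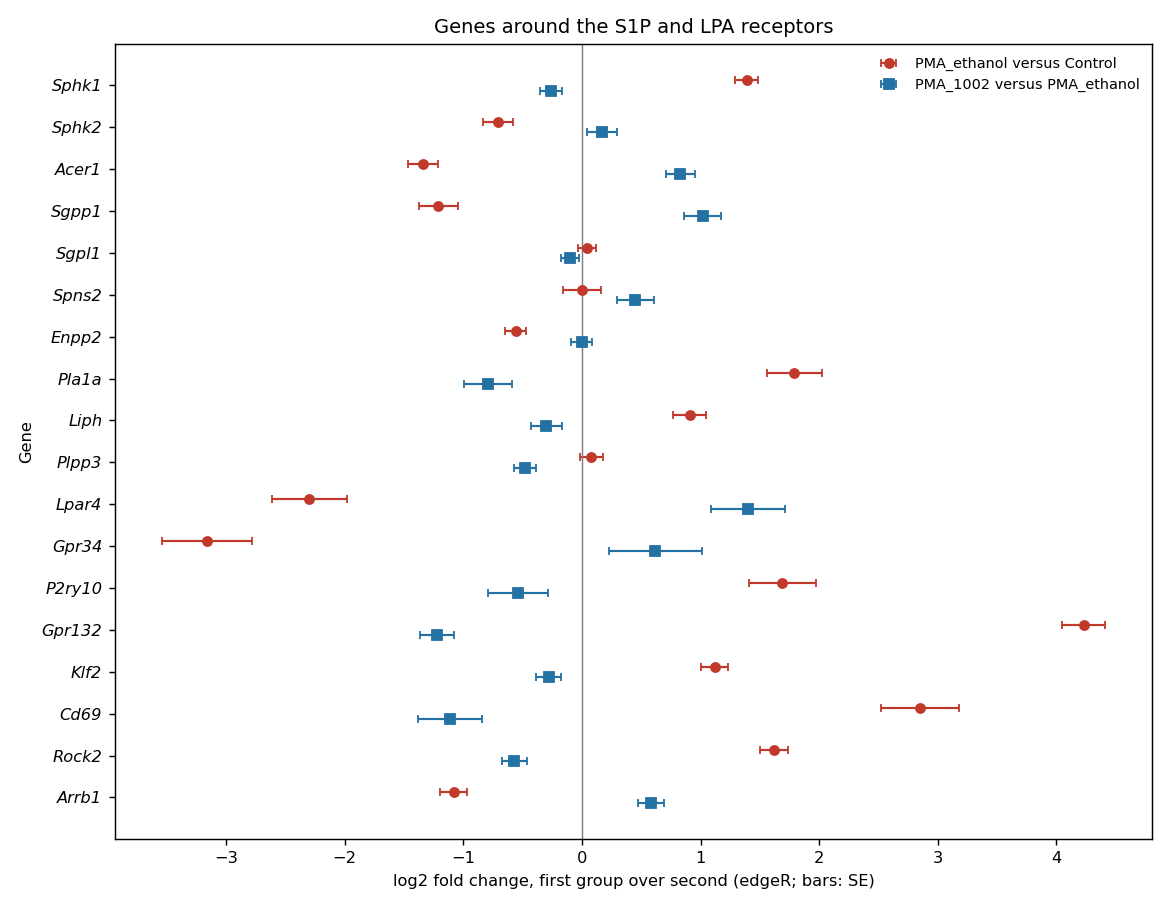
Log2 fold change (x axis, first group over second, edgeR, bars are SE) of 18 genes around the receptors (y axis) in PMA_ethanol versus Control (circles) and PMA_1002 versus PMA_ethanol (squares). Gpr132 at 4.23 and Gpr34 at -3.16 mark the ends of the first comparison, and Sphk1 at 1.39 and Sphk2 at -0.71 lie on opposite sides of 0.

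Within groups, the receptors varied from library to library by different amounts. The within-group SD of log2 CPM was 0.128 for Lpar1, 0.136 for Lpar2 and 0.145 for S1pr1, and it was 0.267 for S1pr3, 0.286 for S1pr4 and 0.32 for S1pr5. After group means were removed, each receptor was compared over the 15 libraries with 12299 genes of a mean of at least 5 CPM, by Pearson r of log2 CPM. The 3 genes most like S1pr1 were Cox18 (r = 0.89), Trappc3 (r = 0.865) and Dtd1 (r = 0.848). Those most like S1pr2 were Crnn (r = 0.917), Fads3 (r = 0.915) and Nid1 (r = 0.889). S1pr3 varied most closely with Krt79 (r = 0.924), Col6a3 (r = 0.878) and Ctse (r = 0.874). For S1pr4 they were Pomk (r = 0.863), Edem2 (r = 0.856) and Dagla (r = 0.833). The 3 genes most like S1pr5 were Pou2f3 (r = 0.826), Cul4a (r = 0.82) and Spryd4 (r = 0.813). Those most like Lpar1 were Srsf5 (r = 0.859), Msi2 (r = 0.841) and Ndufb3 (r = 0.825). Lpar2 varied most closely with Numbl (r = 0.913), Abcb9 (r = 0.908) and 2610035D17Rik (r = 0.898). For Lpar3 they were Slc10a3 (r = 0.884), L3mbtl2 (r = 0.843) and Secisbp2 (r = 0.835). The 3 genes most like Lpar5 were Per1 (r = 0.794), Tomm20 (r = 0.753) and Nfkbid (r = 0.752). Those most like Lpar6 were Pno1 (r = 0.937), Cald1 (r = 0.923) and Gtf2f2 (r = 0.923). These are the highest of many values over few libraries that share depth and tissue makeup, and they are a description only.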

How the data were processed

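The authors deposited raw counts, whole numbers of reads per gene with no normalization, in 1 table per library. Per the labels' protocols, polyA RNA was purified after column extraction and a stranded kit was used. The submitters' processing notes name FastQC 0.11.5, MultiQC 0.8, STAR 2.5, HTSeq and GRCm38. Which strand option and annotation the counting used is not given in the sources used here, which leaves genes with overlapping antisense partners uncertain. Rows of reads given to no gene stayed out of library sizes.

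Groups came from the sample titles. The members, gene lists and tests were chosen with earlier results of these data known. Identifiers were paired with symbols through GENCODE M21, and 48435 of 48795 had one. Counts were fitted in R 4.3.3 with edgeR 4.0.16 (TMM scaling, filterByExpr by group, robust quasi-likelihood, 3 groups, 15 libraries, 14991 genes tested). A gene was called at a Benjamini-Hochberg adjusted p below 0.05 over all genes. All tests are two-sided. The SE was derived from the F statistic. RPKM used the union of exon bases. The common biological coefficient of variation was 0.185. The fit was tested on simulated data with known changes. Pairs of libraries within a group differed beyond sampling noise, so none was counted as a repeat.

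Alternatives were RLE and upper-quartile scaling, no filter or at least 1 CPM in 4 libraries, DESeq2 1.42.0, the 2 groups compared alone, a hair follicle covariate, libraries of low hair follicle level, a block on replicate number and each library left out. Receptors were named throughout. From each pathway list up to 4 called genes of smallest adjusted p per comparison were named, with Sphk1, Spns2, Sgpl1, Enpp2, Plpp3, Klf2, Cd69 and Lpar4 whatever their result. For likeness, the 3 genes with the highest r were named. Promoter windows are from RefSeq on GRCm38.p6. Figures were drawn with matplotlib.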

Additional observations from a re-analysis of the deposited data

Results flagged for a closer look

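In 2 of the 30 sets of log2 CPM values of 1 receptor in 1 group, 1 library stood far from the rest by Dixon's criterion at 95%. Chance flags about 1 in 20 such sets. S1pr4 was at 1.85 CPM in Control library 4, below the other Control libraries at 2.46 to 2.73 CPM. Lpar5 was at 11.2 CPM in PMA_1002 library 3, below the other PMA_1002 libraries at 13.0 to 13.9 CPM.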

How the results depend on the processing

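Of 720 receptor values under 24 alternatives in 3 comparisons, 651 kept their direction and their side of the threshold. Without the 8 hair-rich libraries, 1 receptor was called higher and 0 lower in PMA_1002 versus PMA_ethanol (against 3 and 3; edgeR, 1 PMA_ethanol library left), 7 pathway genes were called there against 22, 13.3% of all genes were called against 35.0%, and 1 receptor was called lower in PMA_1002 versus Control against 3. For same-numbered libraries, the correlation of deviations from the group means had a median of -0.241 over 13 pairs (range -0.533 to 0.579). It was 0.108 over 61 pairs of different numbers. Hair follicle level also varied within groups, so these correlations cannot decide whether libraries of 1 number were paired. With a replicate block 1 receptor was called lower in PMA_1002 versus PMA_ethanol, S1pr3, while S1pr1 and Lpar5 were not. The block also ended the calls of Lpar2, Acer2 and Acp6 there, of Lpar1 in PMA_ethanol versus Control and of Lpar2 in PMA_1002 versus Control. The block kept all libraries in the fit, but number 6 occurs only in PMA_1002, so that library added nothing to the comparisons. Number 5 has no PMA_ethanol library. The cause of these losses was not tested.

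Values near 0 changed sign. In PMA_ethanol versus Control, Spns2 was at 0.04 with DESeq2, RLE scaling, no filter and the replicate block, at 0.00 with a filter at 1 CPM or the 2 groups alone, and between -0.13 and 0.07 with 1 library left out; Plpp3 was at -0.16 and Sgpl1 at -0.20 with upper-quartile scaling, and Plpp3 was at -0.17 and Lpar6 at 0.22 without the hair-rich libraries. In PMA_1002 versus PMA_ethanol, Lpar1 was at -0.03 with DESeq2, at -0.02 with RLE scaling and between -0.04 and 0.07 with 1 library left out, S1pr4 between -0.39 and 0.08, and Enpp2 between -0.07 and 0.08. Enpp2 was at 0.01 without a filter, 0.00 with the replicate block, 0.08 with upper-quartile scaling and 0.28 without the hair-rich libraries. In PMA_1002 versus Control, S1pr4 was at -0.01 with upper-quartile scaling and Sgpl1 at 0.02 without the hair-rich libraries. Upper-quartile scaling put the median log2 fold change of all genes at -0.303, 0.109 and -0.187 in the 3 comparisons, against -0.067, 0.032 and -0.029, and 33.6%, 61.8% and 34.6% of called genes were higher, against 47.5%, 48.7% and 51.5%. In Control, 7 of the 10 receptors kept their place in the order with the length of the longest transcript. Depth limits S1pr4 most, with 8 reads in the shallowest library.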
